A study of Mus musculus with 24 samples.

Results

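The genes described here encode CD11c (Itgax) and the leukocyte integrins related to it. The 8 members were the rows of both count tables with the symbols Itgax, Itgam, Itgal, Itgad, Itgb2, Itga4, Itgb7 and Itgb1, out of 21063 genes, and they were followed across 6 groups of macrophages. All 8 were present in both tables and passed the filter on low counts. All groups were sorted from epididymal fat, taken from male C57BL/6J mice. The mice were kept on a high-fat diet until they weighed 38 to 42 g, at 18 to 20 weeks of age. The diet began at 6 weeks of age for Warm and Cold, and its start was not stated for bFKB1. Cold M1 and Cold M2 macrophages came from mice moved out of thermoneutrality to 18 °C for 7 days and then to 4 °C for 7 days, and harvested on day 14. bFKB1 M1 and bFKB1 M2 macrophages came from thermoneutral mice harvested 8 days after 10 mg/kg of bFKB1 was given into the peritoneum. bFKB1 is an antibody that activates the receptor complex used by the hormone FGF21. Warm M1 and Warm M2 macrophages came from mice held at 29 to 30 °C. Each group had 3 libraries. Each Warm or Cold library pooled the cells of 5 mice. Pooling was not stated for bFKB1, and nothing says that its libraries came from separate animals, so p-values measure the spread between libraries. No vehicle group is among the labels, so Warm was the control of both treatments and is shared by their comparisons.

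Integrins are receptors made of an alpha and a beta chain, and they attach cells to other cells and to the matrix. The beta 2 chain (Itgb2, CD18) pairs with the CD11 alpha chains: alpha L (Itgal, CD11a), alpha M (Itgam, CD11b), alpha X (Itgax, CD11c) and alpha D (Itgad, CD11d). The alpha 4 chain (Itga4, CD49d) pairs with beta 1 (Itgb1, CD29), which has many other alpha partners, or with beta 7 (Itgb7), and both receptors bind leukocytes to vascular adhesion molecules. In obese fat, CD11c is commonly used to separate macrophages called M1 from those called M2, and CD11b is a general marker of myeloid cells. The gates of the sort are not given in the labels. A difference in Itgax between M1 and M2 may therefore have been set by the sort itself. If CD11c was a gate, it also bounded Itgax within M1 and within M2. Changes of Itgax with treatment may then depend on the gates, which was not tested.

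The macrophage libraries held 14.37 to 24.84 M counts and the 6 libraries of adipose progenitors 26.37 to 34.6 M. All 12 macrophage markers listed, such as Cd68 and Csf1r, were detected in every macrophage group. RNA of progenitors was estimated in each macrophage library from the median ratio of 17 progenitor markers to their level in the sorted progenitors. It came to 46.01, 23.03 and 15.3% in the Cold M1 libraries, 7.53, 2.24 and 3.94% in the bFKB1 M1 libraries and 1.94, 6.61 and 1.89% in the Warm M1 libraries. In all M2 libraries it lay between 0.93 and 2.79%. The estimates for all Cold M1 libraries are loose. Quartiles over the markers were 27.57 and 54.01% in replicate 1, 10.81 and 29.32% in replicate 2, and 7.66 and 19.72% in replicate 3. By the medians the Cold M1 libraries stand apart, and values that touch them are given below with this share in view.

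Itgam, Itgax and Itgad are neighbours in the annotation (RefSeq, GRCm38.p6). Itgam lies at chr7:128062640-128118491, Itgax at chr7:128129526-128150657 and Itgad at chr7:128173933-128205504. The gaps are 11034 bases and 23275 bases, and no coding gene lies in either. Itgal, at chr7:127296139-127335137, ends 727.5 kb before Itgam, with 35 coding genes between them. The other members are apart: Itgb2 at chr10:77530329-77565708, Itga4 at chr2:79255426-79333114, Itgb7 at chr15:102215994-102233405 and Itgb1 at chr8:128685654-128733579. Transcript sequences and exon overlaps were taken from GENCODE M21. Among the transcripts of the members, only Itgax and Itgad shared stretches of 50 bases, 384 of them, or 8.88% of those in the shorter set. Itgad had between 0.274 and 1.29% as many counts as Itgax, so its values are uncertain where reads could fall on either gene. The 3′ part of Itga4 shares 1124 exonic bases with Cerkl on the opposite strand, and Itgam shares 3450 with Gm49368 on the same strand. The kit named for the Warm and Cold libraries does not mark strand, so reads from the Cerkl overlap cannot be assigned by it. Strand could not part Itgam from Gm49368 with any kit, so Itgam is uncertain where reads fall in that overlap.

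The promoters of Itgax, Itgam and Itgb7 are shown because Itgax and Itgb7 differed strongly between M1 and M2, whereas Itgam, the neighbour of Itgax, differed little. They run from 250 bases before to 50 bases after an annotated start (GRCm38.p6), 5′ to 3′. The starts used for Itgax and Itgb7 are not the outer ends of the gene bounds given above. The Itgb7 window lies within those bounds. Capitals mark GAGGAA on either strand, a core bound by PU.1 and other ETS factors. Promoters were matched for 5 of the 8 members, these and Itga4 and Itgb1. Itgal, Itgad and Itgb2 were not matched.
Itgax (chr7:128129300-128129599, plus strand): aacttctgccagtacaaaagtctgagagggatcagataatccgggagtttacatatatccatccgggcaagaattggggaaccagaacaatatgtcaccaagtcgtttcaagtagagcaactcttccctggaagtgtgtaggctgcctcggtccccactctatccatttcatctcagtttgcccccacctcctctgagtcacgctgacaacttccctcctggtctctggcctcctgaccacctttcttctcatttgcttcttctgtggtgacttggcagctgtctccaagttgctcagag
Itgam (chr7:128062390-128062689, plus strand): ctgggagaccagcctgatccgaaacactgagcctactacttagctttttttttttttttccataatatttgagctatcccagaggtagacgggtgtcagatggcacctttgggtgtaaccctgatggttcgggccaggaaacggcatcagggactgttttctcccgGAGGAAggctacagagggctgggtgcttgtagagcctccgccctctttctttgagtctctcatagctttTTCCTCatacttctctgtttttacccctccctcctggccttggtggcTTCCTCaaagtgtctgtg
Itgb7 (chr15:102231886-102232185, minus strand): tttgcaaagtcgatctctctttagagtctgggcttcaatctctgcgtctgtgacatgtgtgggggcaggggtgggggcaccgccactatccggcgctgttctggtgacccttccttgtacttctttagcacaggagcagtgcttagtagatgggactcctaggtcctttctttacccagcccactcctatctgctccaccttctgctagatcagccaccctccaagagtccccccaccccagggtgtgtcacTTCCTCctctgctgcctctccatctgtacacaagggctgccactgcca
GAGGAA occurred 3 times in the Itgam window, once each in those of Itgb7 and Itgb1, and in neither Itgax nor Itga4. Of all 32851 promoters of this length, 28.3% held it. TGANTCA, the AP-1 motif, occurred once in the Itgax window, 56 bases before the start, and in no other of the 5, against 7.81% of all promoters. TGTGGT, the RUNX core, occurred once each in the windows of Itgax and Itga4, against 16.8% of all. GGGCGG, the Sp1 box, occurred once each in those of Itgam, Itga4 and Itgb1, against 35.7% of all. TATAAA was in none of the 5, against 13.6% of all. Both strands were searched for each motif. These are matches of letters in a window, and do not show binding.

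The level of each member in each library is given next as CPM, counts per M counts of the library (M as in the totals above). Itgax, the CD11c chain, had 763.6, 914.6 and 1003 CPM in Cold M1, 872.1, 1040 and 875.6 CPM in bFKB1 M1, and 827.8, 727.8 and 781.9 CPM in Warm M1. It had 49.79, 34.02 and 36.34 CPM in Cold M2, 88.72, 130.7 and 186.8 CPM in bFKB1 M2, and 124.8, 75.18 and 116.2 CPM in Warm M2. Every M1 library lay above every M2 library, and the 3 Cold M2 libraries were the lowest of all 18. Cold M1 overlapped with both bFKB1 M1 and Warm M1, while bFKB1 M1 and Warm M1 did not overlap. In M2, bFKB1 overlapped with Warm.

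Itgam, the CD11b chain of complement receptor 3, had 920.6, 1356 and 1332 CPM in Cold M1, 1379, 1474 and 1573 CPM in bFKB1 M1, and 1590, 1349 and 1564 CPM in Warm M1. In M2 it had 1199, 1318 and 1225 CPM in Cold, 1155, 1097 and 1255 CPM in bFKB1, and 1242, 1242 and 1203 CPM in Warm. Its groups lay close together, and Cold M1 replicate 1 was the lowest of all libraries. Itgb2, the beta chain shared by all CD11 chains, had 1365, 1848 and 1905 CPM in Cold M1, 2052, 2216 and 2180 CPM in bFKB1 M1, and 1765, 1649 and 1802 CPM in Warm M1. In M2 it had 1007, 976.6 and 887.7 CPM in Cold, 1100, 1037 and 1253 CPM in bFKB1, and 994.3, 913.4 and 917.9 CPM in Warm. The M1 libraries all lay above the M2 libraries, and bFKB1 was the highest group within each population without overlap with the next.

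Itgal, the alpha chain of LFA-1, which binds the intercellular adhesion molecules, had 47.7, 95.07 and 87.26 CPM in Cold M1, 58.37, 54.44 and 66.04 CPM in bFKB1 M1, and 119.4, 95.21 and 91.01 CPM in Warm M1. In M2 it had 7.052, 9.461 and 8.854 CPM in Cold, 7.933, 9.835 and 9.78 CPM in bFKB1, and 18.33, 13.2 and 12.17 CPM in Warm. Every M1 library again lay above every M2 library, and Warm M2 lay above both treated M2 groups. Itgad, the CD11d chain, had the fewest counts of the 8, with 147 to 158 counts in Cold M1, 87 to 143 in bFKB1 M1 and 93 to 153 in Warm M1. In M2 it had 15, 2 and 3 counts in Cold, 19, 13 and 11 in bFKB1, and 11, 15 and 10 in Warm.

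Itga4 had 112.8, 170.2 and 162.5 CPM in Cold M1, 140.2, 183.7 and 192.7 CPM in bFKB1 M1, and 291.6, 203.7 and 256.2 CPM in Warm M1. Its M2 levels were 98.69, 108.2 and 110.1 CPM in Cold, 117, 134 and 126.3 CPM in bFKB1, and 142.8, 166.2 and 141.4 CPM in Warm. Warm was the highest group in both populations and overlapped with neither treatment. Itgb7 had 108.6, 176.2 and 169.9 CPM in Cold M1, 86.79, 99.71 and 116.5 CPM in bFKB1 M1, and 223.6, 140.8 and 173.3 CPM in Warm M1. The M2 levels were 13.59, 15.44 and 13.08 CPM in Cold, 10.56, 20.23 and 24.45 CPM in bFKB1, and 34.12, 21.69 and 19.2 CPM in Warm. Its M1 and M2 libraries did not overlap.

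Itgb1 was the most even member, with 879.9, 935.8 and 980.3 CPM in Cold M1, 950.8, 899 and 894.9 CPM in bFKB1 M1, and 891, 926.3 and 892.8 CPM in Warm M1. Its M2 levels were 894.6, 874.7 and 852.1 CPM in Cold, 914.6, 842.4 and 890.4 CPM in bFKB1, and 822.9, 934.4 and 870.6 CPM in Warm. All neighbouring groups in the order of its means overlapped. Itgb1 was also the only member whose level in the sorted progenitors came near that in macrophages, at a mean of 775.9 CPM in Cold and 741.7 CPM in Warm progenitors (SD 60.9 and 46.97, n = 3 each). From the estimated share, progenitor RNA would account for 40.6, 19.1 and 12.1% of the Itgb1 counts in the Cold M1 libraries, but for at most 0.91% of the counts of any other member there.

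**Figure D1:**
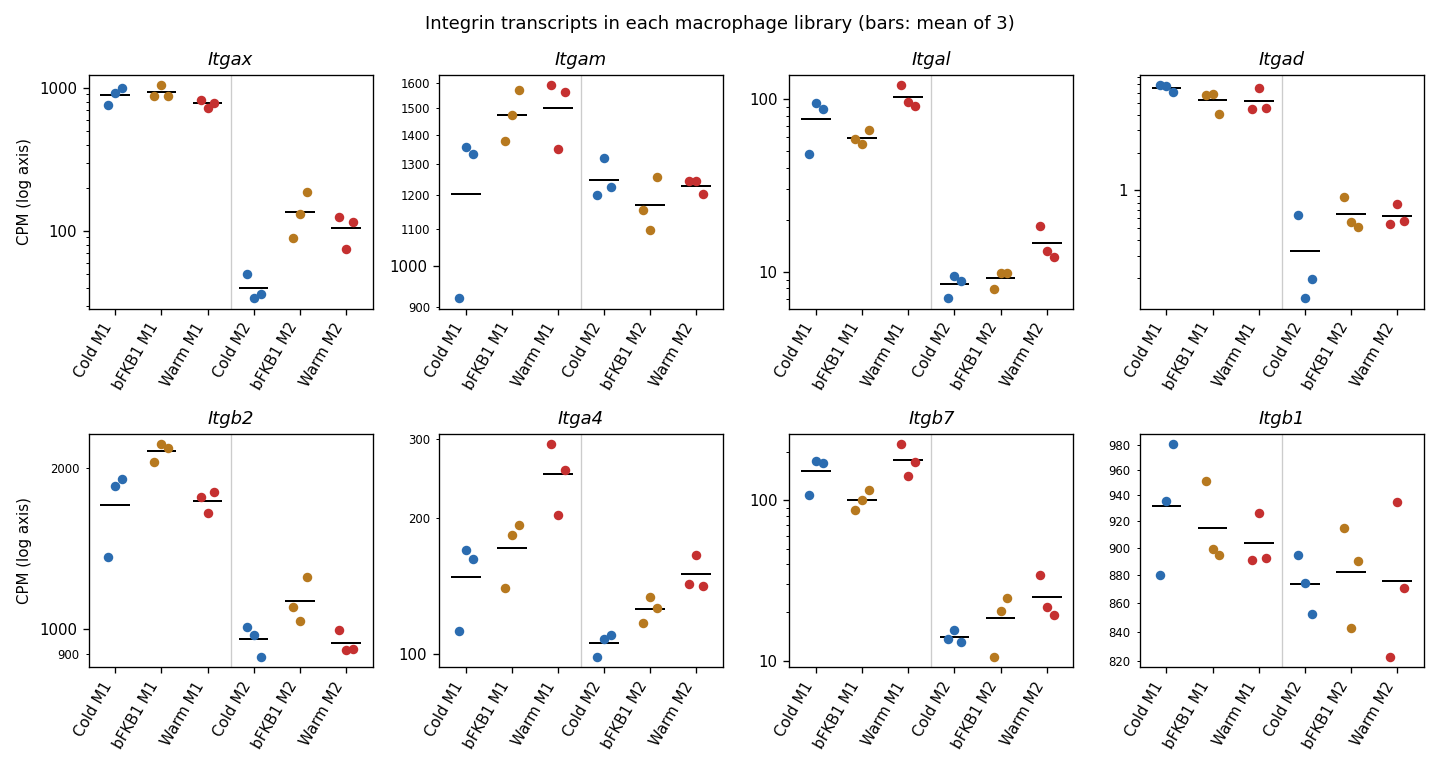
Level of each integrin transcript in every macrophage library, as CPM on a log axis whose range differs between panels. Points are libraries, bars are means of 3, and the grey line parts M1 from M2. Itgax, Itgal, Itgad and Itgb7 were several-fold lower in M2, Itgb1 was level, and the Cold M2 libraries were lowest for Itgax.

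In thermoneutral mice, M1 macrophages carried far more transcript of 4 members than M2 macrophages did. The log2 fold change of Warm M1 against Warm M2 was 2.80 ± 0.20 for Itgax, 2.72 ± 0.25 for Itgal, 2.94 ± 0.33 for Itgad and 2.76 ± 0.25 for Itgb7 (± SE). Itgb2 and Itga4 were moderately higher, by 0.80 ± 0.11 and 0.66 ± 0.16. In edgeR's quasi-likelihood test with Benjamini-Hochberg adjustment, the adjusted p was at most 0.00577 (Itga4) for these 6 members. Itgam (0.20, adjusted p = 0.213 by the same test) and Itgb1 (-0.04, adjusted p = 0.572) did not pass. So 6 of 8 members were higher in Warm M1 and none lower, where 22.5% of the 12981 genes tested were higher, 22.8% lower and 45.2% called in either direction. Libraries of the groups did not overlap for 7 of 8 members, against 59.6% of all genes. The median log2 fold change of the members was 1.76, against 0.04 over all genes tested. The count and the median include Itgax, whose difference may have been set by the sort. They also include Itgad, which is uncertain where reads could fall on Itgax instead. The same limits apply to M1 against M2 in Cold and bFKB1 below.

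The same 6 members were called between the populations in the cold, where 27.8% of genes were higher, 26.9% lower and 54.7% called. Cold M1 exceeded Cold M2 by 4.43 ± 0.22 for Itgax (log2 ± SE), a 21.6-fold difference, where the warm difference was 6.95-fold. The difference was 4.12 ± 0.36 for Itgad, 3.15 ± 0.26 for Itgal and 3.39 ± 0.26 for Itgb7, with adjusted p of at most 4.03e-06 in edgeR's test. Itgb2 was higher by 0.79 ± 0.11, and Itga4 by 0.45 ± 0.16 with an adjusted p of 0.033. The Itga4 call was lost without Cold M1 replicate 2 or 3 or without Cold M2 replicate 1 or 3, where the adjusted p of edgeR's test reached 0.122. Libraries did not overlap for 6 of 8 members, against 60.5% of all genes. Itgam stood at -0.10 and Itgb1 at 0.05, both short of the threshold, and Itgam turned to 0.34 with an adjusted p of 0.000815 when expected progenitor counts were subtracted before the fit.

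Between bFKB1 M1 and bFKB1 M2, 6 of 8 members were higher as well, where 23% of 12734 genes were higher, 24.6% lower and 47.6% called. Itgax was higher by 2.71 ± 0.26, Itgal by 2.63 ± 0.17, Itgad by 2.92 ± 0.26, Itgb7 by 2.39 ± 0.31 and Itgb2 by 0.86 ± 0.08 (log2 ± SE, adjusted p at most 8.45e-05 in edgeR's test). Itgam was here called higher, by 0.27 ± 0.09 with an adjusted p of 0.0269. It lost the call without bFKB1 M1 replicate 2 or 3 or bFKB1 M2 replicate 1 or 2, where the adjusted p of edgeR's test reached 0.103. Itga4 was at 0.39 with an adjusted p of 0.0549, and 0.53 with an adjusted p of 0.00872 without bFKB1 M1 replicate 1. Libraries did not overlap for 7 of 8 members, against 59% of all genes.

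The level in M2 macrophages can be set against the mean of the M1 macrophages of the same condition. For Itgax it was 4.48 ± 0.95% in Cold, 14.6 ± 5.3% in bFKB1 and 13.5 ± 3.4% in Warm (SD, n = 3 M2 libraries each). For Itgal it was 11 ± 1.6% in Cold, 15.4 ± 1.8% in bFKB1 and 14.3 ± 3.2% in Warm. For Itgb7 it was 9.26 ± 0.82% in Cold, 18.2 ± 7.1% in bFKB1 and 14 ± 4.5% in Warm. Itgad, on few counts, stood at 4.96 ± 4.2% in Cold, 12.5 ± 4.0% in bFKB1 and 12.1 ± 2.5% in Warm. In Warm the means of these 4 members thus lay within 12.1 to 14.3%, while the 3 Warm M2 libraries of Itgax alone ran from 9.65 to 16%. Whether some M1 cells in the M2 gate gave part of this level was not tested. Itgb2 was between 52.6 and 56.1% in the 3 conditions, Itga4 between 59.9 and 73%, Itgam between 79.2 and 104%, and Itgb1 between 93.8 and 97%.

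**Figure D2:**
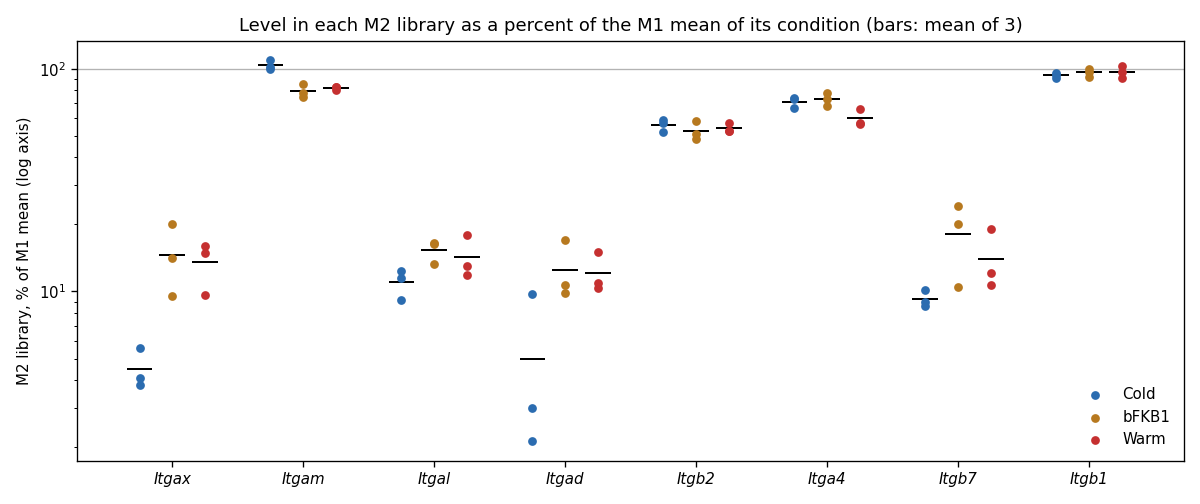
Level of each member in every M2 library, as a percent of the mean of the 3 M1 libraries of the same condition, on a log axis. Points are libraries and bars are means. Itgax, Itgal, Itgad and Itgb7 lay near 12 to 14% in Warm, and Itgax was at 4.48% in Cold, against 13.5% in Warm.

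Markers of the macrophages themselves and of other leukocytes also differed between the populations. Of the 12 macrophage markers, 10 were lower in M1 than in M2 in each of the 3 conditions, with 1 higher in Warm, none in Cold and 1 in bFKB1. They summed to 11800 to 16200 CPM in Cold M1, 19600 to 20400 CPM in bFKB1 M1 and 16600 to 17500 CPM in Warm M1. In M2 they summed to 29600 to 29900 CPM in Cold, 30000 to 31100 CPM in bFKB1 and 27400 to 29100 CPM in Warm. All M1 libraries thus lay below all M2 libraries in this sum, and its part in the integrin differences was not tested. Of 10 dendritic cell markers, 6 were higher and 2 lower in Warm M1 than in Warm M2, and 6 were higher and 4 lower in bFKB1 M1 than in bFKB1 M2. They summed to 467 to 583 CPM in Warm M1 and 889 to 1040 CPM in Warm M2. Flt3, a receptor of dendritic cells and their precursors, had a mean of 57.1 CPM in Cold M1, 22.3 CPM in bFKB1 M1 and 42.8 CPM in Warm M1, and 0.643 CPM in Cold M2, 1.38 CPM in bFKB1 M2 and 3.69 CPM in Warm M2. The lectin gene Clec10a went the other way, with 199 CPM in Warm M1 and 787 CPM in Warm M2, and so did Siglech, a marker of plasmacytoid dendritic cells, with 0.453 CPM in Warm M1 and 11.9 CPM in Warm M2. Cd209a had 140 CPM in Warm M1 and 135 CPM in Warm M2.

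The 8 monocyte markers summed to 2550 to 2760 CPM in Cold M1, 2380 to 2810 CPM in bFKB1 M1 and 3380 to 3620 CPM in Warm M1. In M2 they summed to 1560 to 1860 CPM in Cold, 1660 to 1860 CPM in bFKB1 and 2300 to 2650 CPM in Warm. Most of this came from Nr4a1, which had 2680 CPM in Warm M1 and 2140 CPM in Warm M2, and which was the 1 marker of 8 not called between them. Nr4a1 and Ace are not particular to monocytes here, since the sorted Warm progenitors had 2460 and 1720 CPM of them. The other 7 markers were all higher in Warm M1. The 12 T and NK cell markers summed to 93.3 to 110 CPM in Warm M1 and 28.8 to 31.2 CPM in Warm M2, most of it from Il7r, which had 91.6 CPM in Warm M1 and 19.4 CPM in Warm M2. Of the 7 that passed the filter, 5 were higher and 1 lower in Warm M1. Gzma, a granzyme of NK and cytotoxic T cells, had 4.01 CPM in Warm M1 and 0.528 CPM in Warm M2, and Cd4 had 0.769 CPM in Warm M1 and 7.56 CPM in Warm M2. Cd3e, a defining T cell gene, was at or below 0.135 CPM in the mean of every group. The 6 neutrophil markers summed to 40.3 to 47.6 CPM in Warm M1 and 72.2 to 80.7 CPM in Warm M2, nearly all from Csf3r, and of the 4 tested 3 were higher and 1, Csf3r, lower in Warm M1. The neutrophil gene Ly6g was at 0 in all groups. The part of dendritic cells, monocytes, T and NK cells and neutrophils in the integrin levels was not tested. In these bulk libraries, fewer cells of a type and less RNA per cell cannot be told apart.

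Levels of different members were compared per kilobase of exon. Itgam and Itgax made up nearly all of the CD11 transcripts by this measure. The overlap of Itgam with Gm49368 was not taken into account in it. Itgax took 44.7 ± 2.6% of the summed CPM per kb of the 4 CD11 chains in Cold M1, 40.8 ± 2.9% in bFKB1 M1 and 35.9 ± 0.76% in Warm M1 (SD, n = 3 each). In M2 its share was 3.52 ± 0.86% in Cold, 11.4 ± 3.2% in bFKB1 and 8.77 ± 2.1% in Warm, and Itgam took most of the rest, with 95.9, 88 and 90.3% in these 3 groups. The Cold M1 libraries ran from 42 to 47.3% and the Warm M1 libraries from 35.2 to 36.7%, without overlap. This share is a ratio within a library, so RNA of other cells that lack both transcripts does not enter it. It shows an unequal change of the 2 chains and not which of them moved. Itgb2 was 1.11 to 1.45 times the sum of the CD11 chains per kb in all 18 libraries, although that sum was 255 to 300 CPM per kb in M2 and 372 to 549 in M1. Itgb1 exceeded Itgb7 per kb by 2.8 to 7.71 times in M1 and by 17 to 60.9 times in M2.

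**Figure D3:**
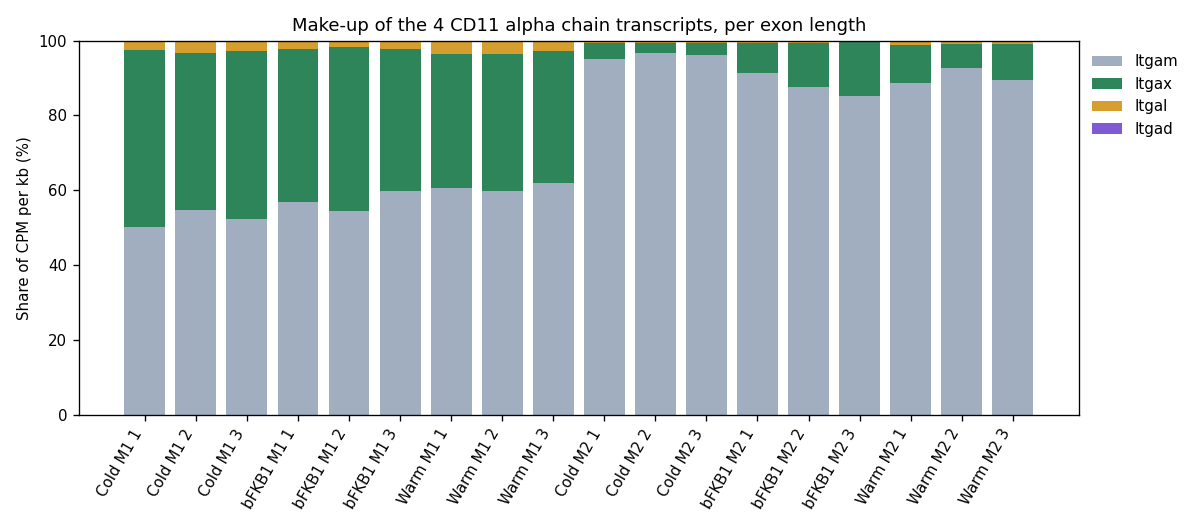
Share of each CD11 alpha chain in their summed CPM per kb of exon, as a stacked bar for each library. Itgax took 35.2 to 47.3% in M1 libraries and 2.84 to 14.4% in M2 libraries, with the lowest shares in Cold M2.

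In M2 macrophages of cold-exposed mice Itgax fell, with the largest log2 fold change of the 8 members. The log2 fold change of Cold M2 against Warm M2 was -1.46 ± 0.20 (SE), a level 0.363 times that in Warm, with an adjusted p of 0.00163 in edgeR's quasi-likelihood test. Itga4 (-0.57 ± 0.16, adjusted p = 0.0448) and Itgb7 (-0.90 ± 0.26, adjusted p = 0.0493) also fell by the same test. So 3 of 8 members were lower and none higher, where 4.41% of genes were higher, 5.69% lower and 10.1% called in either direction. Itgal was at -0.87 ± 0.26 with an adjusted p of 0.0585, and its libraries did not overlap either. It was called lower in 5 of 15 other settings. Itgad was at -0.85 on 2 to 15 counts (adjusted p = 0.249), or -1.91 with an adjusted p of 0.0239 without Cold M2 replicate 1. Itgam and Itgb2 were both at -0.04, and Itgb1 at -0.07. In all, 4 of 8 members had libraries that did not overlap, against 40% of genes, and the members' median was -0.71 against 0.00 over all genes.

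The Itgax call in Cold M2 held in each of 15 other settings, with values between -1.66 and -1.33. The calls of Itga4 and Itgb7 were lost when most single libraries were left out. For Itga4 this was true of each of the 6 Cold M2 and Warm M2 libraries, with an adjusted p of edgeR's test up to 0.156. For Itgb7 it was true of all but Warm M2 replicate 3, up to 0.144, and without Warm M2 replicate 1 its value moved to -0.61. Of the 8 monocyte markers, 3 were lower in Cold M2 and none higher. Ccr2, the receptor that draws monocytes into fat, had a mean of 35.2 CPM in Cold M2 and 231 CPM in Warm M2. The 10 dendritic markers summed to 986 to 1220 CPM in Cold M2 and 889 to 1040 CPM in Warm M2, with 3 lower and 1 higher. Most of that sum was Clec10a, with 965 CPM in Cold M2 and 787 CPM in Warm M2, which was not called. Flt3 was lower, with 0.643 CPM in Cold M2 and 3.69 CPM in Warm M2, and so was Cd24a, with 0.491 CPM in Cold M2 and 2 CPM in Warm M2. Siglech went the other way, with a mean of 22.1 CPM in Cold M2 and 11.9 CPM in Warm M2. So did Zbtb46, with 13.6 CPM in Cold M2 and 8.25 CPM in Warm M2. The 8 mast cell markers summed to 14.1 to 23.2 CPM in Cold M2 and 2.21 to 3.78 CPM in Warm M2. The part of these cells, or of the sort gates, in the result was not tested.

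In M1 macrophages of cold-exposed mice Itga4 fell by 0.78 on the log2 scale (SE 0.16, adjusted p = 0.0032 in edgeR's test), in a contrast in which 22.4% of all genes were higher, 21.5% lower and 43.9% called. This call held in all 15 other settings, but its size did not, with values between -0.89 and -0.34. Subtraction of expected progenitor counts was among those settings. Itgam was also called lower, at -0.34 ± 0.13 with an adjusted p of 0.0457. It was lost without Cold M1 replicate 1 (-0.20, adjusted p = 0.122 in edgeR's test) and without Warm M1 replicate 1 or 3 (adjusted p up to 0.144). It stood at 0.09 after subtraction of expected progenitor counts. The other 6 members did not pass: Itgax was at 0.18 (95% interval -0.24 to 0.59), Itgad at 0.34, Itgal at -0.43, Itgb7 at -0.27, Itgb2 at -0.05 and Itgb1 at 0.03. So 2 of 8 members were lower, and libraries of 1 member did not overlap, where 51.7% of all genes did not.

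Cold M1 replicate 1, with the most progenitor RNA, was the lowest of the 3 Cold M1 libraries for Itgax, Itgam, Itgal, Itgb2, Itga4, Itgb7 and Itgb1. As a percent of the Warm M1 mean, Itgam was at 61.3, 90.3 and 88.7% in the 3 Cold M1 libraries. Itga4 was at 45, 67.9 and 64.9%, and Itgax at 98, 117 and 129%. After subtraction of expected progenitor counts, Itgax was at 0.62 with an adjusted p of 0.0229 and Itgb2 at 0.39 with an adjusted p of 0.000971 in edgeR's test. With the lower quartile of the share in place of the median, an alternative added after the data were seen, both calls were absent, with Itgax at 0.40 (adjusted p = 0.0893) and Itgb2 at 0.17 (adjusted p = 0.0565 by the same test). Subtraction set some genes that progenitors express close to 0, such as Jam3 at -6.56 on the log2 scale, so these values depend on the estimate. The 8 mast cell markers summed to 24.1 to 44.7 CPM in Cold M1 and 5.04 to 13.7 CPM in Warm M1.

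**Figure D4:**
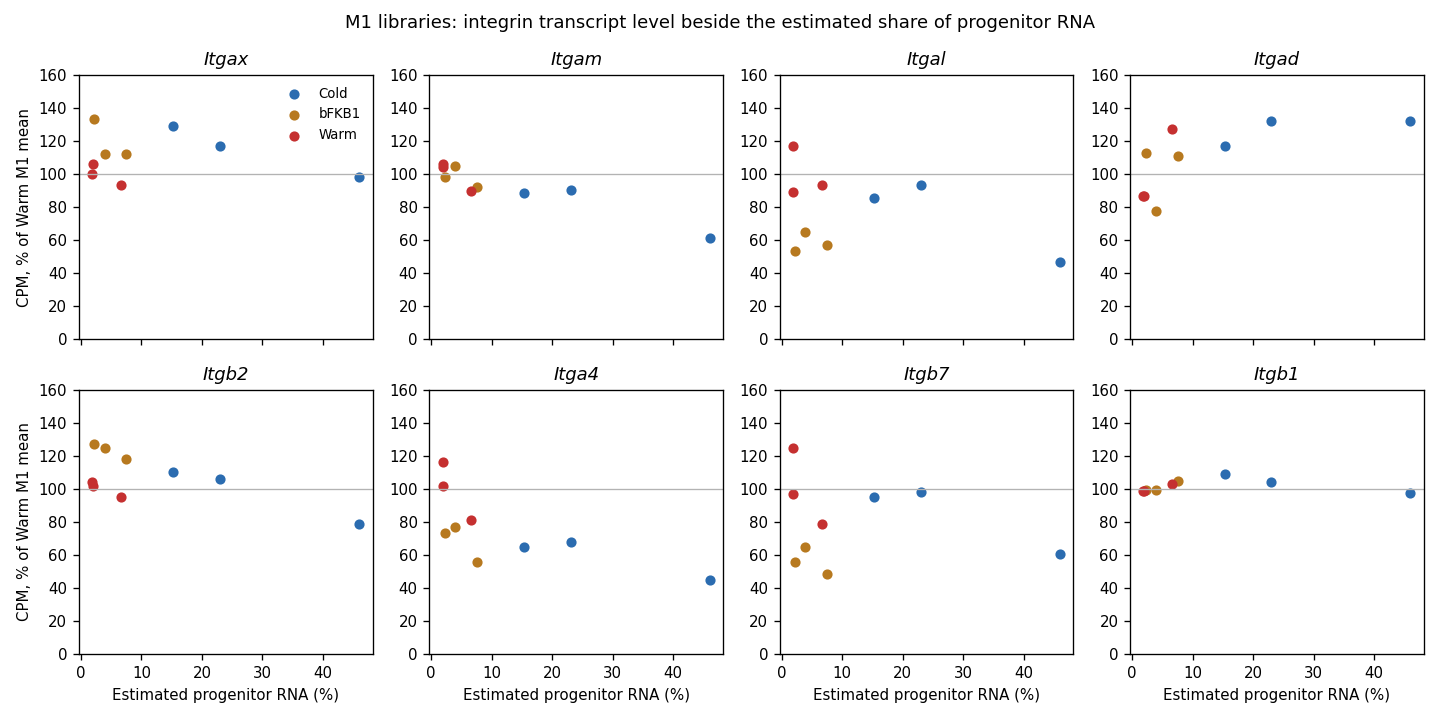
Level of each member in the 9 M1 libraries, as a percent of the Warm M1 mean, against the estimated percent of progenitor RNA in the library. Points are libraries and the grey line is 100%. Cold M1 replicate 1, at 46.01% progenitor RNA, was at 61.3% for Itgam, 45% for Itga4 and 98% for Itgax.

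The effect of cold on Itgax differed between the populations. The cold effect in M1 minus that in M2 was 1.64 ± 0.27 for Itgax (log2 ± SE), from 0.18 in M1 and -1.46 in M2, with an adjusted p of 0.0284 in edgeR's test of the interaction. It was the only member called, where 1.2% of genes were higher, 1.11% lower and 2.31% called. The value stayed between 1.52 and 2.08 in 21 other settings and kept its call in 15. The call was lost without Warm M1 replicate 1 (adjusted p = 0.0682 in edgeR's test) or 3 (0.0727), without Cold M2 replicate 2 (0.0838) or 3 (0.0795), and without Warm M2 replicate 1 (0.0618) or 3 (0.0688). The differences for Itgad (1.18 ± 0.51, adjusted p = 0.178), Itgb7 (0.63 ± 0.35, adjusted p = 0.277) and Itgal (0.43 ± 0.34, adjusted p = 0.455) did not pass. For Itga4 the difference was -0.21 with a 95% interval of -0.70 to 0.28. The data bound any unequal effect on Itga4 only to that range. In the same interaction, 3 of 10 dendritic cell markers and 1 of 8 monocyte markers were called higher and none lower. Of 17 progenitor markers, 3 were called higher and none lower. The part of these cells and of the sort gates in the Itgax result was not tested.

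After bFKB1, Itgb2 was higher in M1 macrophages and Itgal and Itga4 were lower. The log2 fold change of bFKB1 M1 against Warm M1 was 0.32 ± 0.08 for Itgb2 (adjusted p = 0.0213), -0.76 ± 0.15 for Itgal (adjusted p = 0.00609) and -0.53 ± 0.15 for Itga4 (adjusted p = 0.0298 in edgeR's test). So 1 of 8 members was higher and 2 were lower, where 12.2% of genes were higher, 9.45% lower and 21.6% called. Itgb7 was at -0.82 ± 0.28 with an adjusted p of 0.0608, and at -0.98 with an adjusted p of 0.0243 without Warm M1 replicate 2. Itgax was at 0.26 (95% interval -0.27 to 0.80), Itgam at -0.02, Itgad at 0.02 and Itgb1 at 0.03. Libraries did not overlap for 5 of 8 members, Itgax and Itgb7 among them, against 39.5% of genes. Of 10 dendritic cell markers 4 were lower and none higher, and of 8 monocyte markers 1 was lower and none higher. Of 12 macrophage markers 6 were higher and none lower. Ccr2 had a mean of 288 CPM in bFKB1 M1 and 566 CPM in Warm M1. The part of these cells in the bFKB1 values was not tested. The Itgal call held in all 15 other settings. That of Itgb2 was lost without bFKB1 M1 replicate 2 or 3 or Warm M1 replicate 1 (adjusted p of edgeR's test up to 0.0739), and that of Itga4 without bFKB1 M1 replicate 1 or 2 or Warm M1 replicate 1 or 3 (up to 0.119).

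In M2 macrophages after bFKB1, Itgal fell by 0.68 on the log2 scale (SE 0.17, adjusted p = 0.0368 in edgeR's test), the only one of 8 members called. Of all genes, 5.25% were higher, 3.01% lower and 8.26% called. The call was lost without any of the 3 bFKB1 M2 libraries or without Warm M2 replicate 1 or 2, with an adjusted p of edgeR's test up to 0.127. Itgb2 was at 0.25 ± 0.08 with an adjusted p of 0.0917, Itga4 at -0.27 and Itgb7 at -0.45. Itgax was at 0.35 (95% interval -0.19 to 0.89), with its 3 bFKB1 M2 libraries spread from 88.72 to 186.8 CPM. Libraries did not overlap for 3 of 8 members, against 35.8% of genes. Of 10 dendritic cell markers 1 was lower and none higher, and of 8 monocyte markers 2 were lower and none higher. Of 12 macrophage markers 2 were higher and none lower. Ccr2 had a mean of 95.2 CPM in bFKB1 M2 and 231 CPM in Warm M2. The part of these cells was not tested. No member differed in its bFKB1 effect between M1 and M2 at the threshold. In that interaction edgeR called 0 of 12734 genes, with 976 at an unadjusted p under 0.05 and no member among them, and DESeq2 called 76 genes and no member.

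The bFKB1 libraries were in a table of their own, and how they were made is described less fully than for Warm, so the antibody and the table cannot be told apart. The cold and bFKB1 comparisons share the Warm libraries, and their values are therefore given side by side without a test. For Itga4 they were -0.78 in Cold M1 and -0.53 in bFKB1 M1, and -0.57 in Cold M2 and -0.27 in bFKB1 M2. Over other settings the Itga4 values ran from -0.89 to -0.34 in Cold M1 and from -0.67 to -0.38 in bFKB1 M1. For Itgal they were -0.43 in Cold M1 and -0.76 in bFKB1 M1, and -0.87 in Cold M2 and -0.68 in bFKB1 M2. For Itgax they were 0.18 in Cold M1 and 0.26 in bFKB1 M1, and -1.46 in Cold M2 and 0.35 in bFKB1 M2.

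**Figure D5:**
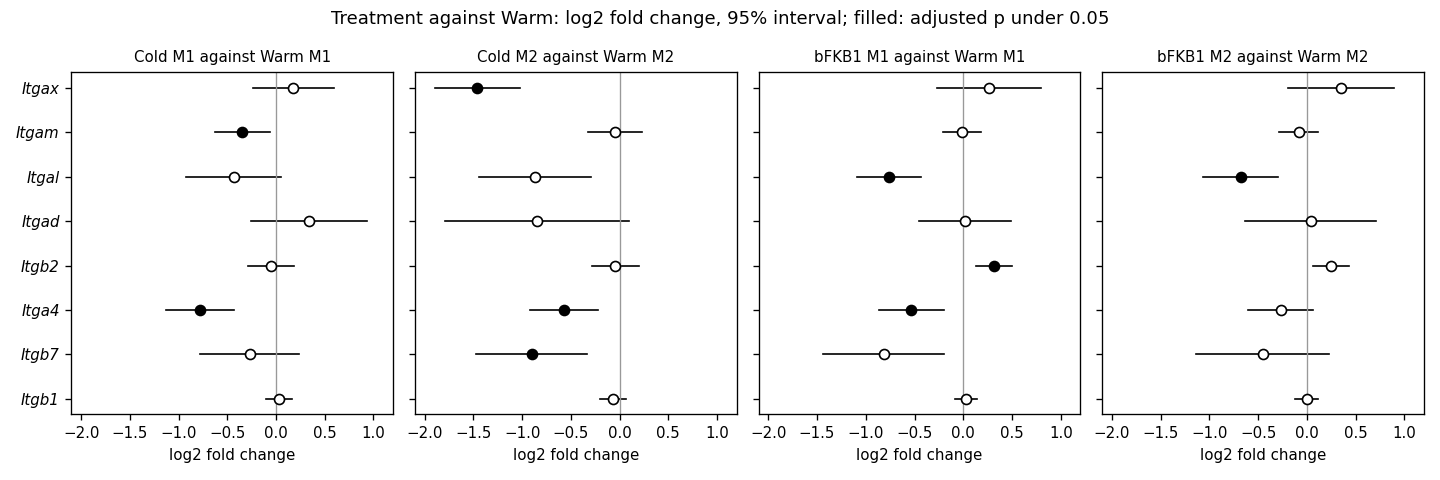
Log2 fold change of each member for each treatment against Warm, with 95% intervals, in M1 and M2 macrophages. Filled points passed an adjusted p of 0.05 in edgeR's test. Itgax in Cold M2 was at -1.46, and Itga4 was called lower in 3 of the 4 panels.

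The 13 other integrin alpha and 5 other beta genes on the list were tested alongside, apart from Itgb6, which did not pass the filter. In Warm M1 against Warm M2, 4 alpha genes were higher and 1 lower, and 3 beta genes were higher, where 45.2% of all genes were called in either direction. The counts of this list and of those that follow are descriptions, to be read against the shares of all genes called that were given for each comparison. Itgav, the alpha V chain that binds matrix proteins, was higher by 1.01 ± 0.17 (log2 ± SE), with 135 CPM in Warm M1 and 63.2 CPM in Warm M2. Itga9, which pairs with beta 1, was lower by 1.71 on the log2 scale, with 28.9 CPM in Warm M1 and 88.6 CPM in Warm M2. Itgb3, a partner of alpha V, was higher by 1.28 on 6.56 CPM in Warm M1 and 2.53 CPM in Warm M2. Itga9 and Itgav moved the same way in Cold M1 against Cold M2 (-1.24 and 1.59) and in bFKB1 M1 against bFKB1 M2 (-1.53 and 0.80), all with adjusted p of at most 0.000597 in edgeR's test. Itgae, the CD103 chain that pairs with beta 7, was higher in Cold M1 by 3.52, with 3.23 CPM in Cold M1 and 0.283 CPM in Cold M2.

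Itga5, the fibronectin receptor chain, fell in the cold in both populations. It was at -0.56 ± 0.08 in M1, with 343 CPM in Cold M1 and 500 CPM in Warm M1, and at -0.67 ± 0.08 in M2, with 237 CPM in Cold M2 and 361 CPM in Warm M2 (adjusted p at most 0.000884 in edgeR's test). Itgb5, another partner of alpha V, was higher after bFKB1 by 0.80 ± 0.14 in M1, with 433 CPM in bFKB1 M1 and 251 CPM in Warm M1. It was higher by 0.79 ± 0.14 in M2, with 298 CPM in bFKB1 M2 and 171 CPM in Warm M2 (adjusted p at most 0.00927 by the same test). In Cold M1 it was higher by 0.81, and by 0.72 after subtraction of expected progenitor counts.

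Of 12 ligand genes that passed the filter, 7 were higher and 1 lower in Warm M1 against Warm M2. Madcam1, Fga, Fgb and Fgg were not tested. Fn1, fibronectin, had a mean of 11400 CPM in Warm M1 and 2460 CPM in Warm M2 (log2 2.13 ± 0.18). Vcam1, the ligand of alpha 4 beta 1, was lower by 1.18 on the log2 scale, with 68.3 CPM in Warm M1 and 145 CPM in Warm M2. This call was lost after subtraction of expected progenitor counts, where 7 ligands were higher and none lower. In Cold M2 against Warm M2, 1 ligand was higher and 2 lower. Fn1 had 595 CPM in Cold M2 and 2460 CPM in Warm M2 (-2.12 ± 0.18, adjusted p = 0.000282 in edgeR's test), and Icam1, a ligand of LFA-1 and CD11b, had 359 and 487 CPM in those groups. The cold effect on Fn1 differed between the populations by 1.47 ± 0.25 (M1 minus M2, adjusted p = 0.03), in the same direction as that on Itgax. Spp1, osteopontin, was higher in Cold M2 by 1.00 ± 0.25 and in bFKB1 M2 by 2.02 ± 0.18. In Cold M1, 6 ligands were higher and 3 lower than in Warm M1. C3 was among those higher, with 5060 CPM in Cold M1 and 633 CPM in Warm M1. Its log2 fold change was exactly 0 after subtraction of expected progenitor counts, which set some genes that progenitors express close to 0. That value therefore does not show that C3 was equal in these groups. After that subtraction, 2 ligands were higher and 4 lower in Cold M1.

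Of 16 genes that regulate integrin activation, such as talins, kindlins and Rap1 as activators and filamin A and Dok1 as inhibitors, 8 were higher and 3 lower in Warm M1 against Warm M2. Flna, filamin A, which competes with talin for beta chain tails, was higher by 0.76 ± 0.10, with 4750 CPM in Warm M1 and 2660 CPM in Warm M2. In Cold M1, 2 were higher and 6 lower than in Warm M1, and Fermt3, kindlin-3 of blood cells, was at -0.49 ± 0.09, or -0.05 after subtraction of expected progenitor counts. After that subtraction, 1 was higher and 3 were lower. In Cold M2, Flna was the only one called, at -0.51 ± 0.10, with 1950 CPM in Cold M2 and 2660 CPM in Warm M2. After bFKB1, 1 was higher and 3 lower in M1, and 1 was higher and 1 lower in M2. Rap1a, a small GTPase that activates integrins, was lower by 0.23 on the log2 scale in both.

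Of 18 genes that signal from integrins, 10 were higher and 1 lower in Warm M1 against Warm M2. Fgr, a Src family kinase that acts with beta 2 integrins, was higher by 2.17 ± 0.26 (log2 ± SE), with 173 CPM in Warm M1 and 36.4 CPM in Warm M2. Ptk2b, the kinase Pyk2, was higher by 0.93 ± 0.11, and its relative Ptk2, the focal adhesion kinase, was lower by 1.49 on the log2 scale. In Cold M2, 2 were lower and none higher. Fgr was at -1.58 ± 0.27 there, with 12.6 CPM in Cold M2 and 36.4 CPM in Warm M2 (adjusted p = 0.00553 in edgeR's test). In Cold M1, 2 were higher and 11 lower, or 4 higher and 6 lower after subtraction of expected progenitor counts. After bFKB1, 3 were higher and 1 lower in M1 and 3 higher and none lower in M2. Ptk2b was higher in both, by 0.37 ± 0.07 in M1 and 0.49 ± 0.07 in M2.

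The genes most like each member were ranked by Pearson's r on log2(CPM + 1) over the 18 macrophage libraries, among 9555 genes. M1 and M2 form separate clusters, so r within each population, over 9 libraries, is given as a description for some genes and as a range for the rest. F7, coagulation factor VII, was most like Itgax (r = 0.995, 0.66 within M1 and 0.96 within M2). Fam78b, Sdc1 and Dock5 also ranked among the most like, with r of 0.983 to 0.987 over all libraries, 0.15 to 0.69 within M1 and 0.86 to 0.94 within M2. Itgal was most like Klri1 (0.991) and then like Itgb7 (0.99), and Itgal and Itgb7 also varied together within M1 (0.91) and within M2 (0.85). Itgb7 was most like Ddr1 (0.995) and Itpr1 (0.994). Itgb2 was most like Capg (0.989) and Ctss (0.984), and Itga4 like St3gal4 (0.973) and Far1 (0.97). Itgad was most like Mical1 (0.99) and Spag9 (0.983), Itgam like Laptm5 (0.933) and Sdha (0.931), and Itgb1 like Brca1 (0.915) and Dlat (0.867). Within M1 the r of the genes named for Itgal, Itgb7, Itgb2, Itga4, Itgad and Itgb1 ran between 0.7 and 0.98, and within M2 between 0.78 and 0.96. For Itgam the likeness lay within M1, with 0.98 for Laptm5 there and 0.11 within M2. Itgax and its neighbour Itgam had an r of 0.43 over all libraries, 0.27 within M1 and -0.37 within M2. The libraries of Cold M1 share progenitor RNA, which enters the values within M1.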

How the data were processed

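The authors deposited raw read counts for each gene in 2 tables, one for the Warm and Cold libraries and one for bFKB1. Per the submitters' processing notes, CASAVA 1.8, GSNAP and the build GRCm38 were used for both and SAMtools for the Warm and Cold table. How reads were assigned to genes is not given in the sources used here. Sample descriptions name the column of each library. Left out were 27 rows named by a date, which held 0.148 to 0.192% of counts.

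Counts were tested in R 4.3.3 with edgeR 4.0.16 (filterByExpr, TMM scaling, 1 mean per group, quasi-likelihood F-test, Benjamini-Hochberg adjustment over all genes tested, threshold 0.05). The fit of Warm and Cold macrophages held 12981 genes and that of Warm and bFKB1 macrophages 12734. Levels are CPM over library totals, with exon lengths from GENCODE M21 where genes are compared. Simulated counts were used to test the fit. The alternatives were DESeq2 1.42.0, RLE scaling, library totals, no filter, all 18 or only 6 libraries, blocks, each library left out, and subtraction of expected progenitor counts (the progenitor share times the mean progenitor profile of the same temperature).

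The text names the 8 members in every comparison, some of the 4 genes with the smallest p among those called in each integrin, activation, signalling and ligand list, and for likeness 5 genes for Itgax and 2 for each other member, among genes with a mean of at least 5 CPM. One gene that this rule takes is not reported here. Flt3, Zbtb46, Clec10a, Siglech, Cd209a, Cd24a, Nr4a1 and Ace were picked from the marker lists after their values were seen. So were Ccr2, Il7r, Gzma, Cd4, Cd3e, Csf3r and Ly6g. The members, lists and alternatives were chosen with earlier results of these data known.

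Replicate numbers come from the titles, and for bFKB1 the numbers among the characteristics differ from them. Deviations from group means of M1 and M2 libraries with the same number correlated at 0.19, 0.33 and 0.26 in Warm and 0.48, 0.14 and 0.41 in bFKB1, but at -0.41, -0.12 and -0.21 in Cold. By the rule that each correlation exceed 0.1, numbers were taken to pair M1 with M2 in Warm and bFKB1 and not in Cold. Some libraries with different numbers also exceeded 0.1. Examples are Warm M1 replicate 1 with M2 replicate 3 (0.12) and bFKB1 M1 replicate 3 with M2 replicate 2 (0.18). Another is Cold M1 replicate 3 with M2 replicate 1 (0.42). The rule therefore cannot show which libraries share a pool.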

Additional observations from a re-analysis of the deposited data

Results flagged for a closer look

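The effect of cold on Itgax differed between the macrophage populations by a test of the difference itself. It was 1.64 on the log2 scale (cold effect in M1 minus cold effect in M2, SE 0.27, adjusted p = 0.0284 in edgeR's quasi-likelihood test), and the adjusted p rose to as much as 0.0838 when single libraries were left out. In M2, all 3 Cold libraries were below all 3 Warm libraries, whereas in M1 the groups overlapped. By the same test, 3 of 10 dendritic cell markers, 1 of 8 monocyte markers and 3 of 17 progenitor markers were called higher and none lower. Of all genes, 1.2% were higher and 1.11% lower. The gates of the sort are not given. The part of the gates and of other cells in this difference was not tested.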

How the results depend on the processing

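The counts of members called between M1 and M2 stayed within 1.5 times of 6 in every setting run. For Cold M1 against Warm M1 the count of 2 became 1 with library totals, with no filter, with only the 6 libraries compared and with the lower quartile of the progenitor share subtracted (added after the data were seen), and 1 to 2 with single libraries left out. With expected progenitor counts subtracted, Itgam reversed to 0.09 and Itgb2 to 0.39 in Cold M1 against Warm M1, Itgam to 0.34 in Cold M1 against Cold M2, and Itgb2 to 0.43 in the cold interaction, where 3 members were called in place of 1. Leaving out single libraries gave 0 to 2 there. For Cold M2 against Warm M2 the count of 3 became 1 with library totals and 1 to 2 without single libraries. It became 4 with DESeq2, with expected progenitor counts subtracted and with the lower quartile of the share subtracted. For Cold M1 against Warm M1 the count was 3 with expected progenitor counts subtracted. For bFKB1 M1 the count of 3 became 1 to 4 without single libraries, and for bFKB1 M2 the count of 1 became 2 with DESeq2 or only 6 libraries, 0 in a fit of all 18, and 0 to 1 without single libraries. The causes were not tested, apart from the smaller number of libraries in some fits. With the replicate number as a block, 1 member was called in Cold M1, 1 in Cold M2 and 0 in bFKB1 M2 against Warm. Between M1 and M2, blocks by pool kept 6 calls in Warm and 6 in bFKB1. They kept 5 in Cold, where the numbers did not meet the rule for pairing given above. Itga4 stood at 0.43 there (adjusted p = 0.0505 in edgeR's test). The block changed no other call between M1 and M2. With 3 libraries a group, changes of Itgad on 2 to 19 counts in M2 were not detectable unless large.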

Other observations

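The sorted progenitors held low levels of the CD11 transcripts that differed between libraries. Itgax had 2.391, 14.19 and 3.299 CPM in Cold progenitors and 34.36, 26.52 and 6.474 CPM in Warm progenitors. Itgb2 had 4.099, 24.25 and 5.953 CPM in Cold and 44.13, 37.86 and 7.514 CPM in Warm progenitors. The 12 macrophage markers summed to 98.6, 219 and 104 CPM in Cold and 550, 447 and 111 CPM in Warm progenitors, so the libraries with more of these markers had more of both integrin transcripts.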
